A study of Mus musculus with 6 samples.

Results

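The amino acid transporter genes of 7 solute carrier families, SLC1, SLC3, SLC6, SLC7, SLC36, SLC38 and SLC43, were examined in cultured osteoclasts with and without a deletion of the chloride channel gene Ano1. Members were all gene names on the array that begin with one of these family names, whatever their values were. They came to 66 of 37074 gene names and to 120 of 56605 probes. Of the 66 names, 62 belong to transporters and 4 (Slc36a1os, Slc36a3os, Slc6a19os and Slc7a6os) are other genes, named for lying opposite a transporter gene.

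RNA came from osteoclasts that were grown from bone marrow cells of 3 Ano1fl/fl mice and 3 Ctsk-Cre;Ano1fl/fl littermates and treated with RANKL, the cytokine that drives osteoclast formation, for 5 days. Both groups carried the floxed Ano1 alleles and the same RANKL treatment, and the Cre recombinase, present in 1 group, is made under control of the cathepsin K gene, which is switched on as osteoclasts mature. The labels give no age, and the general culture methods describe marrow from mice a few weeks old. All 6 one-colour Agilent arrays shared 1 slide and 1 scan, and between 33480 and 34951 of 59305 transcript spots were well above background on each. The Ctsk-Cre;Ano1fl/fl arrays are called knockout-labelled below, because the single Ano1 probe stayed below that mark on all 6 arrays (processed signals of 3.28, 3.22 and 3.91 in controls and 3.23, 3.25 and 3.81 in the others) and so could not check the labels. Every direction given here is by label.

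Marker lists of several cell types were counted, and these values stand beside all results that follow. Among all 20645 genes tested, 23.4% were higher and 29.0% lower on the knockout-labelled arrays, against which each count is to be read. Of 11 osteoclast markers, 10 were higher and 1 was lower on the knockout-labelled arrays, and the mean log2 signal of the list went from between 10.78 and 11.17 to between 14.30 and 14.63. Among them Ctsk, Mmp9 and Acp5 were 9.01-fold, 20.5-fold and 1.79-fold higher. The study describes these genes as lower in knockout osteoclasts, which is the opposite direction, and with these arrays exchanged labels cannot be told apart from a true difference, so every direction below could turn. Of 15 stromal and osteoblast markers, 12 were higher and 2 were lower, with list means of 6.26 to 6.69 in controls and 9.72 to 10.18 on the knockout-labelled arrays, and 2 of the 15 were below background on every control array. Neutrophil and precursor markers were lower for 8 of 11 genes, from list means of 13.84 to 14.01 down to 11.82 to 12.30, and higher for 1. Macrophage markers were lower for 4 of 10 and higher for 1, and 4 of 5 B cell markers were higher, 1 lower. In the T and NK cell list 1 of 6 markers was higher and 2 were lower, in the endothelial list 1 of 4 tested was higher and 1 lower, and 4 of 5 erythroid markers were below background on all arrays. The part of these shifts in the transporter results was not tested. In RNA from whole cultures, fewer cells of a type and less RNA per cell cannot be told apart.

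Amino acids cross membranes mainly through carriers. SLC7 light chains pair with an SLC3 heavy chain and exchange one amino acid for another, SLC1, SLC6 and SLC38 carriers use the sodium gradient to concentrate their substrates, SLC36 carriers use protons, and the SLC43 carriers LAT3 and LAT4 let neutral amino acids flow down their gradient. The supply that they provide feeds protein synthesis, glutathione and nitric oxide, and it is read by the kinases mTORC1 and GCN2. GCN2 acts through the transcription factor ATF4, which is known to switch on several of these carriers when amino acids run short. Osteoclasts are large multinucleated cells that secrete acid and proteases onto bone, and they have a high demand for amino acids.

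The transporters were, on balance, higher on the knockout-labelled arrays. Of the 66 genes, 42 were tested because all 3 arrays of 1 or both groups showed them well above background, and 36 reached that mark on all 6 arrays. In limma, with p adjusted over all 20645 genes tested, 21 of the 42 were higher and 5 were lower at an adjusted p under 0.05. Among all genes tested, 23.4% were higher, 29.0% were lower and 52.4% were called in either direction. More than 2-fold changes were found for 11 genes higher and 2 lower, against 9.88% higher and 7.19% lower among all genes. The groups did not overlap for 29 of the 42, against 64.0% of all genes. The median log2 difference, knockout-labelled minus control, was 0.38 over the 42 genes and -0.06 over all genes tested. With only genes well above background on all 6 arrays tested, 18 of the 36 were higher and 4 lower. The remaining 24 genes were not tested, and 19 of the 66 were below background throughout.

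**Figure D1:**
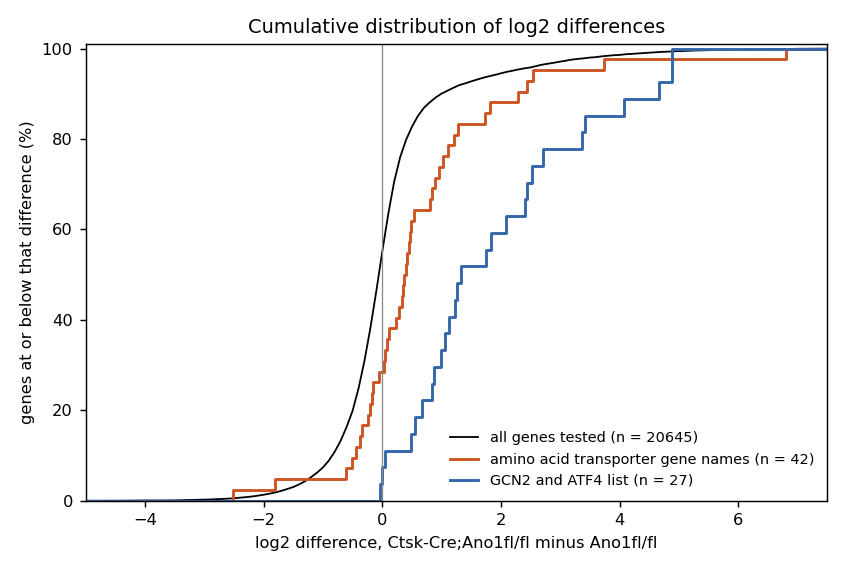
Cumulative share of genes (in percent, vertical axis) at or below a log2 difference between knockout-labelled and control arrays (horizontal axis), for all 20645 genes tested, the 42 tested amino acid transporter gene names and the 27 genes of the GCN2 and ATF4 list. The transporter curve lies to the right of all genes over most of its length, with medians of 0.38 and -0.06, and the GCN2 and ATF4 curve lies farther right with a median of 1.33. That list was chosen with earlier results of these data known.

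The family counts are to be read against 23.4% higher and 29.0% lower among all genes tested, and 9.88% and 7.19% past 2-fold. In SLC7, which holds the cationic carriers and the light chains, 8 of 11 tested genes were higher and 0 lower, 6 of them by more than 2-fold, with a median log2 difference of 1.10. All 3 tested SLC1 genes and the 1 tested SLC3 gene were higher. In SLC38, 4 of 7 were higher and 0 lower, and in SLC36, 2 of 3 were higher and 0 lower. In SLC6, which carries glycine, monoamines, GABA, taurine and creatine, 3 of 12 were higher and 3 lower, close to the shares among all genes. In SLC43, 0 of 3 were higher and 2 were lower. At an unadjusted p under 0.05, limma gave 0 lower genes in SLC7 and SLC36, 1 in SLC38 (Slc38a9) and 0 higher in SLC43, and the t-test named in the methods gave 0 in each of these 4 families. These counts describe the families, and differences between families were not tested.

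**Figure D2:**
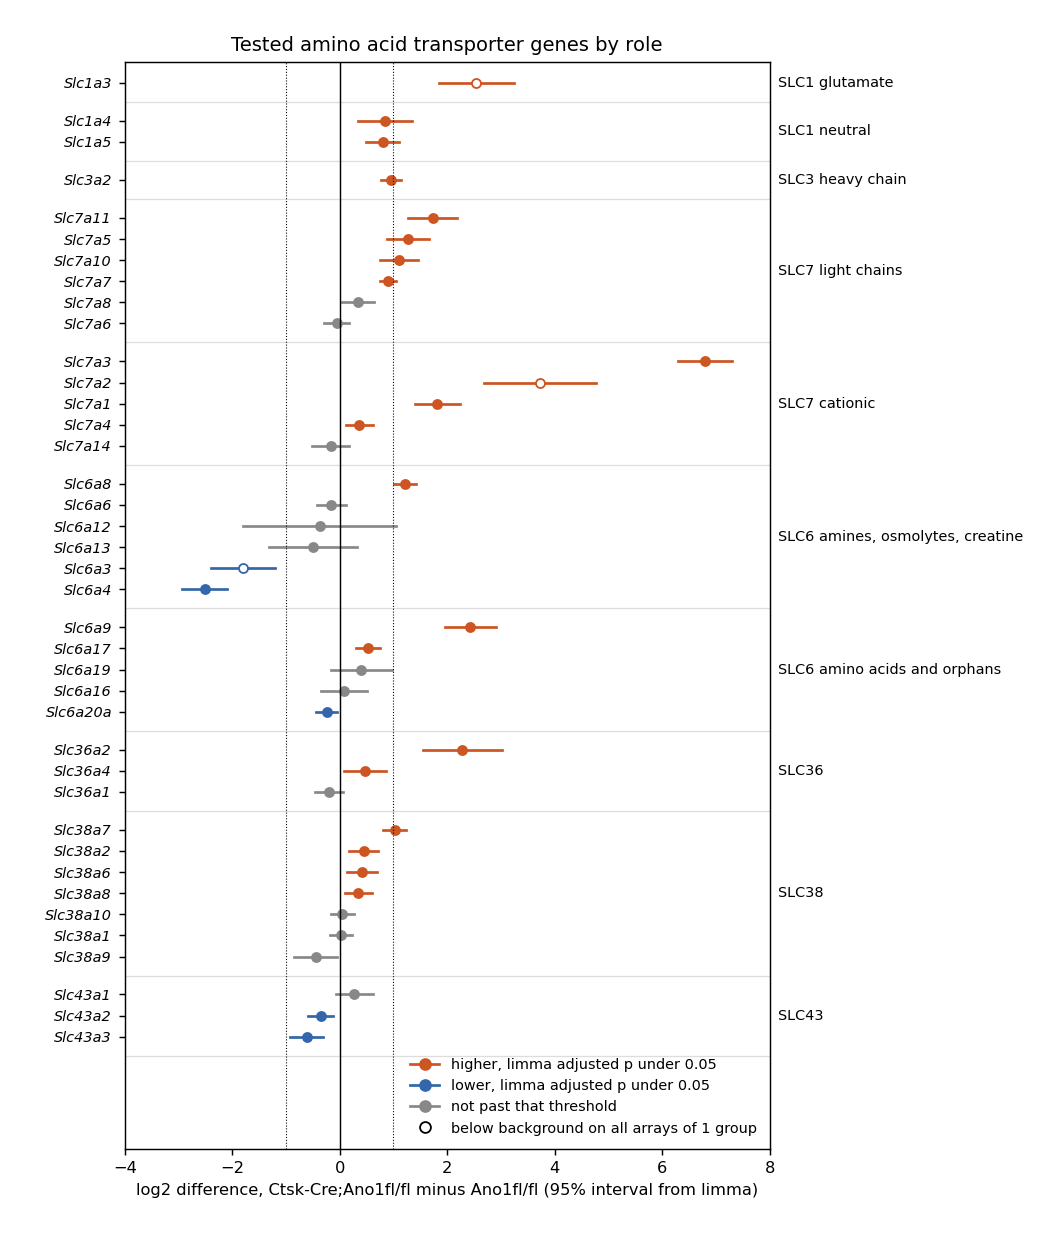
Log2 difference, knockout-labelled minus control, of 39 of the 40 tested transporter genes grouped by role, with 95% intervals from limma. Points are coloured by call, dotted lines mark 2-fold, and open points (Slc7a2, Slc1a3 and Slc6a3) were below background on all arrays of 1 group, so that their plotted difference is no exact size. The cationic carriers span from -0.17 to 6.80, and the interval of Slc6a12, from -1.80 to 1.06, is wide.

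The cationic amino acid transporters bring arginine, lysine and ornithine into cells. Slc7a3, the CAT3 carrier, gave log2 signals of 4.24, 4.75 and 4.64 on the control arrays and 11.23, 11.09 and 11.72 on the knockout-labelled arrays. The control values were close to the lowest signals that counted as well above background, which lay between 3.70 and 4.22 on the 6 arrays, and the groups were far apart. The difference was 6.80 (95% interval 6.30 to 7.30, limma adjusted p = 1.09e-05), a fold of 112, and only 22 of the 20645 genes rose more. Sizes near background depended on the background correction, and with normexp the log2 differences of Slc7a3 and of Slc7a5, described below, were 4.90 and 0.79, both still past the threshold in limma. For Slc7a2, Slc1a3 and Slc6a3, which were below background in 1 group, the fitted differences with normexp were 1.25, 0.66 and -0.42, smaller than the limits given for them below, so those limits hold for the processed signal only. The single Slc7a3 probe lies at chrX:98274644-98274703 (mm9, the build of the array annotation).

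Slc7a2, the CAT2 carrier that supplies arginine to macrophages, gave 3.22, 3.59 and 2.13 in controls, none of them well above background, and 7.13, 6.86 and 6.13 on the knockout-labelled arrays (probe at chr8:42003321-42003380). Its level was at least 6.67-fold higher on the knockout-labelled arrays (limma adjusted p = 0.000835), where this limit uses, for each control array, the lowest signal that still counted as well above background. Slc7a2, like Slc1a3 and Slc6a3 below, entered the test only through the group in which it was high, so the adjusted p of these 3 genes, which uses values below background, is given as a description. Slc7a1, the widely expressed CAT1 carrier, gave 12.14, 12.79 and 12.62 in controls and 14.38, 14.22 and 14.40 on the knockout-labelled arrays (chr5:149139957-149140016). It rose by 1.82 on the log2 scale (95% interval 1.39 to 2.24, limma adjusted p = 0.000413), and the groups did not overlap. The other members of this group are relatives with less certain substrates, of which Slc7a4 rose by 0.36 in a call lost under 6 of 15 alternatives and Slc7a14 differed by -0.17 without passing the test (-0.32 and past the threshold without control replicate 3, limma adjusted p = 0.0322, and -0.057 without control replicate 1).

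The heteromeric exchangers consist of a heavy chain that brings the complex to the cell surface and a light chain that carries the amino acids. The heavy chain gene Slc3a2, which encodes CD98 and serves most of the light chains below, gave 14.46, 14.54 and 14.43 in controls and 15.51, 15.41 and 15.36 on the knockout-labelled arrays. It rose by 0.95 (95% interval 0.77 to 1.13, limma adjusted p = 0.000198), just under 2-fold, and the groups did not overlap. Both of its other probes rose as well, by 1.55 and 0.69 on the log2 scale. The probe with the smallest of these rises carries a 20-base word that 5 of the probes for other genes also hold, and it shares such words with 11 probes for other genes in all, so its signal may not be from Slc3a2 alone. The other heavy chain gene, Slc3a1, was below background on all 6 arrays.

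Of 10 light chain genes, 6 were tested and 4 rose. Slc7a11, the xCT chain that takes up cystine in exchange for glutamate, gave 11.31, 11.14 and 10.94 in controls and 13.19, 12.88 and 12.52 on the knockout-labelled arrays (chr3:50176047-50176106). It rose by 1.73 (95% interval 1.27 to 2.19, limma adjusted p = 0.000672), a fold of 3.32. Of its 4 probes, spread along the transcript, 3 were well above background on all 6 arrays and were higher by 1.13, 1.73 and 2.20 on the log2 scale. The other was below background on all control arrays and was at least 3.31-fold higher.

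Slc7a5, the LAT1 chain that takes up leucine and other large neutral amino acids, gave 5.89, 6.37 and 5.83 in controls and 7.24, 7.22 and 7.46 on the knockout-labelled arrays (chr8:124430996-124431055). Its rise was 1.28 (95% interval 0.89 to 1.67, limma adjusted p = 0.00118) and the groups did not overlap. Slc7a7, the y+LAT1 chain that exports cationic amino acids in exchange for neutral ones, gave 12.29, 12.23 and 12.23 in controls and 13.15, 13.10 and 13.17 on the knockout-labelled arrays. The values within each group were nearly equal, and the rise was 0.89 (95% interval 0.74 to 1.04, limma adjusted p = 0.000129).

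Slc7a10, the Asc-1 chain for small neutral amino acids, rose by 1.10 (95% interval 0.74 to 1.45, limma adjusted p = 0.00146) on its brightest probe, from 7.12, 6.79 and 6.61 to 7.83, 8.08 and 7.90. That probe was designed on a cDNA clone and shares a 20-base word with a probe for D9Ertd720e, which differed by 1.01 in the same direction. The other Slc7a10 probe was below background on all 6 arrays, so the rise rests on a single probe, and the mean of both probes rose by 0.55.

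The remaining light chains did not pass the test. Slc7a6, the y+LAT2 chain, differed by -0.06 (95% interval -0.30 to 0.18). Slc7a8, the LAT2 chain, gave 12.15, 12.42 and 12.41 in controls and 12.56, 12.87 and 12.56 on the knockout-labelled arrays, a difference of 0.34 (95% interval 0.03 to 0.64, limma adjusted p = 0.0624), whereas its dimmer probe was lower by -0.66 on the log2 scale and was called lower in the fit over probes (limma adjusted p = 0.0446). The 2 probes of Slc7a8 thus pointed in opposite directions.

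**Figure D3:**
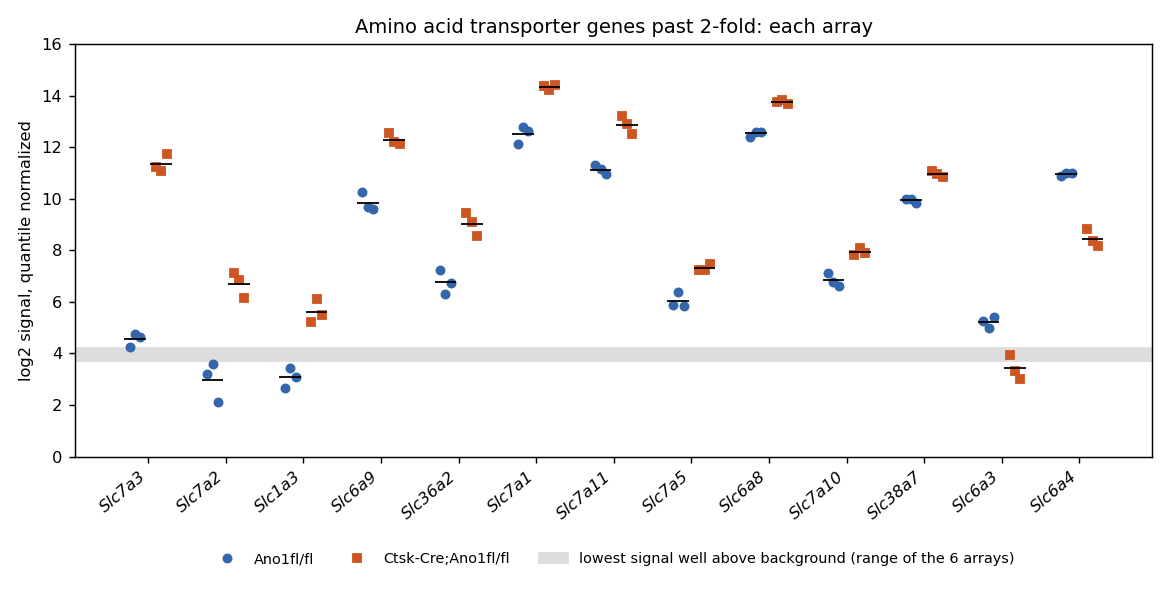
Log2 signal after quantile normalization (vertical axis) on each of the 3 control and 3 knockout-labelled arrays for the 13 member genes past 2-fold, with group means as bars. The grey band marks the lowest signal well above background, from 3.70 to 4.22 over the arrays. Slc7a2 and Slc1a3 lie below the band on every control array, Slc6a3 lies in or below it on every knockout-labelled array, and the groups of all 13 genes are apart.

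The SLC1 family has 2 branches. Slc1a5, the ASCT2 carrier and a main route of glutamine entry, gave 11.61, 11.99 and 12.01 in controls and 12.65, 12.77 and 12.59 on the knockout-labelled arrays. It rose by 0.80 (95% interval 0.49 to 1.11, limma adjusted p = 0.00289), and the groups did not overlap. Slc1a4, the ASCT1 carrier of serine and alanine, gave 13.16, 12.68 and 13.20 in controls and 13.53, 14.17 and 13.84 on the knockout-labelled arrays, a rise of 0.84 (95% interval 0.34 to 1.34, limma adjusted p = 0.0159) that missed the threshold with the methods' t-test (Benjamini-Hochberg adjusted p = 0.0559).

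The only Slc1a4 probe ends in a GT-rich repeat, and the 20-base word printed here, which 6 probes for other genes share, is given because it bears on how far that signal can be assigned to Slc1a4.
Slc1a4 probe, from base 29: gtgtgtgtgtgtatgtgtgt
Slc3a2 other probe, from base 33: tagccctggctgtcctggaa
Slc7a10 probe, from base 35: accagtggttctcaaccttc
The 6 probes that share the Slc1a4 word differed by 0.29 to 0.71 on the log2 scale, all in the same direction as Slc1a4. The part of that repeat in the Slc1a4 signal was not tested.

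In the glutamate branch of SLC1, Slc1a3, the GLAST carrier, gave 2.65, 3.45 and 3.10 in controls, none of them well above background, and 5.23, 6.10 and 5.50 on the knockout-labelled arrays. Its level was at least 3.12-fold higher there (limma adjusted p = 0.000738). Slc1a1 and Slc1a6, known as glutamate carriers of neurons, were well above background on 2 of 3 knockout-labelled arrays and on 0 control arrays and were not tested.

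In SLC6, the glycine carrier gene Slc6a9 and the creatine carrier gene Slc6a8 rose, and the serotonin and dopamine carrier genes Slc6a4 and Slc6a3 fell. Slc6a9, the GlyT1 glycine carrier, gave 10.25, 9.69 and 9.62 in controls and 12.53, 12.18 and 12.14 on the knockout-labelled arrays (chr4:117541842-117541901). It rose by 2.43 (95% interval 1.95 to 2.92, limma adjusted p = 0.000227), a fold of 5.40. Its single probe shares a 20-base word with a probe for Ccdc24, which differed by 1.84 in the same direction. The mean log2 signal of that Ccdc24 probe was 2.63, under the lowest signals well above background, so its difference is no exact size.

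Slc6a8, the creatine carrier, gave 12.41, 12.59 and 12.60 in controls and 13.73, 13.83 and 13.67 on the knockout-labelled arrays (chrX:70927775-70927834). It rose by 1.21 (95% interval 1.00 to 1.42, limma adjusted p = 0.000136), and its other probe rose by 1.05. Slc6a4, the serotonin carrier, gave 10.86, 11.01 and 11.01 in controls and 8.81, 8.36 and 8.16 on the knockout-labelled arrays (chr11:76845560-76845619). It fell by 2.52 on the log2 scale (95% interval -2.93 to -2.10, limma adjusted p = 0.000114), a level 5.72 times higher in controls, and its other probe fell by 2.75.

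Slc6a3, the dopamine carrier, gave 5.28, 4.99 and 5.40 in controls and 3.93, 3.32 and 3.01 on the knockout-labelled arrays, none of the latter well above background. Its level was at least 2.20-fold lower on the knockout-labelled arrays (limma adjusted p = 0.00162). Slc6a6, the taurine carrier, gave 14.48, 14.18 and 14.35 in controls and 14.27, 14.25 and 14.02 on the knockout-labelled arrays, a difference of -0.16 (95% interval -0.43 to 0.12) with overlapping groups. Among the other SLC6 genes, Slc6a17, a carrier of synaptic vesicles, differed by 0.53, was well above background on 1 of 3 control arrays, so that it too entered the test only through the group in which it was high, and lost its call under 3 of 14 alternatives (down to 0.11, adjusted p up to 0.135), Slc6a20a, a proline carrier, fell by 0.25 in a call lost under 13 of 15 alternatives (differences from -0.30 to -0.040, adjusted p up to 0.862), and Slc6a16 and Slc6a19 did not pass the test.

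Slc6a12 and Slc6a13, which carry betaine and GABA and lie beside each other on chromosome 6, varied more within the groups than between them. Slc6a12 gave 13.77, 12.09 and 11.72 in controls and 12.86, 11.94 and 11.67 on the knockout-labelled arrays. Slc6a13 gave 12.04, 11.12 and 10.77 in controls and 11.13, 10.68 and 10.61 on the knockout-labelled arrays. Differences of -0.37 (95% interval -1.80 to 1.06) and -0.51 (95% interval -1.32 to 0.31) did not pass the test, and changes as large as 2-fold lie within both intervals. Without control replicate 1 the sign of Slc6a12 turned (0.25) and the difference of Slc6a13 was -0.14, and without control replicate 3 that of Slc6a13 was -0.77.

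The SLC38 family carries glutamine and other neutral amino acids. Slc38a7, a glutamine carrier of the lysosome, gave 10.00, 9.98 and 9.84 in controls and 11.08, 10.96 and 10.85 on the knockout-labelled arrays. It rose by 1.02 (95% interval 0.81 to 1.24, limma adjusted p = 0.000286). Slc38a2, the SNAT2 carrier that cells raise when amino acids are scarce, gave 13.34, 13.11 and 13.14 in controls and 13.82, 13.53 and 13.58 on the knockout-labelled arrays, a rise of 0.45 (95% interval 0.18 to 0.71, limma adjusted p = 0.0159), while its dimmer probe differed by 0.12 without passing the test. Without control replicate 2 or control replicate 3 the Slc38a2 rise missed the threshold (limma adjusted p = 0.0564 and 0.0521).

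Slc38a1, the SNAT1 carrier, differed by 0.02 (95% interval -0.18 to 0.23), a value whose sign turned with 75th percentile scaling, and of its other probes 1 rose by 0.40 (limma adjusted p = 0.0116 over probes) while 0.27 and -0.23 did not pass. Slc38a9, the lysosomal carrier through which arginine is reported to mTORC1, gave 11.73, 11.83 and 12.03 in controls and 11.70, 11.41 and 11.12 on the knockout-labelled arrays. The difference of -0.45 (95% interval -0.85 to -0.05) did not pass (limma adjusted p = 0.0596), its other probe differed by -0.08, and the brighter probe shares a 20-base word with a probe for Noa1, which differed by -0.24. Slc38a6 rose by 0.42 on its brightest probe and 0.47 on another, while its remaining probes differed by 0.32 and -0.58 without passing, and Slc38a8 rose by 0.35. These 2 calls were lost under 6 and 7 of 15 alternatives. Slc38a10 differed by 0.05 without passing, and of its other probes 1 fell by 0.46 (limma adjusted p = 0.0354 over probes) and 1 differed by 0.02.

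The SLC36 carriers move glycine, proline and alanine with protons. Slc36a2, the PAT2 carrier, gave 7.22, 6.31 and 6.75 in controls and 9.46, 9.08 and 8.57 on the knockout-labelled arrays (chr11:54972134-54972193), a rise of 2.28 (95% interval 1.55 to 3.02, limma adjusted p = 0.00145). Its other 2 probes, both well above background, differed by 0.11 and 0.12 and did not pass the test, so the rise was seen on 1 of 3 probes, and the mean of the probes rose by 0.84. Slc36a1, the PAT1 carrier of the lysosome, differed by -0.20 (95% interval -0.47 to 0.06), and Slc36a4 rose by 0.47 (limma adjusted p = 0.0476) in a call lost under 8 of 15 alternatives, among them 5 of 6 left-out arrays.

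In SLC43, both calls were falls. Slc43a2, the LAT4 carrier that lets branched-chain amino acids leave cells, gave 13.52, 13.41 and 13.45 in controls and 13.18, 13.22 and 12.94 on the knockout-labelled arrays. It fell by 0.35 on the log2 scale (95% interval -0.58 to -0.12, limma adjusted p = 0.0231), and its other probes fell by 0.63 and 0.88. The call was lost without control replicate 1, 2 or 3 (limma adjusted p = 0.0682, 0.0510 and 0.0595). Slc43a3, which is in the family by sequence but is known as a nucleobase carrier, fell by 0.62, and its other probe, well above background on 1 of 3 knockout-labelled arrays, differed by -1.02. Slc43a1, the LAT3 carrier, differed by 0.27 on its brightest probe without passing (0.13 without knockout-labelled replicate 1, and called higher, at 0.41 and 1.07, without knockout-labelled replicate 3 and with the mean of all probes, limma adjusted p = 0.0389 and 0.0102), and its other probe rose by 1.87 (limma adjusted p = 0.0203 over probes), from 3.38, 4.44 and 4.20 to 5.97, 4.90 and 6.76, with 2 of 3 control arrays well above background.

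Over all 120 probes, 60 were well above background on all 6 arrays, 44 on none and 16 on some. Of the 70 tested, 30 were higher and 11 were lower in limma, against 21.8% higher and 30.6% lower among 31848 probes tested. Past 2-fold there were 17 higher and 4 lower, against 8.91% and 8.11%. Probes of 1 gene share a target and are not independent. In 18 genes 2 or more probes were tested, and in 0 of them did called probes point in opposite directions.

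**Figure D4:**
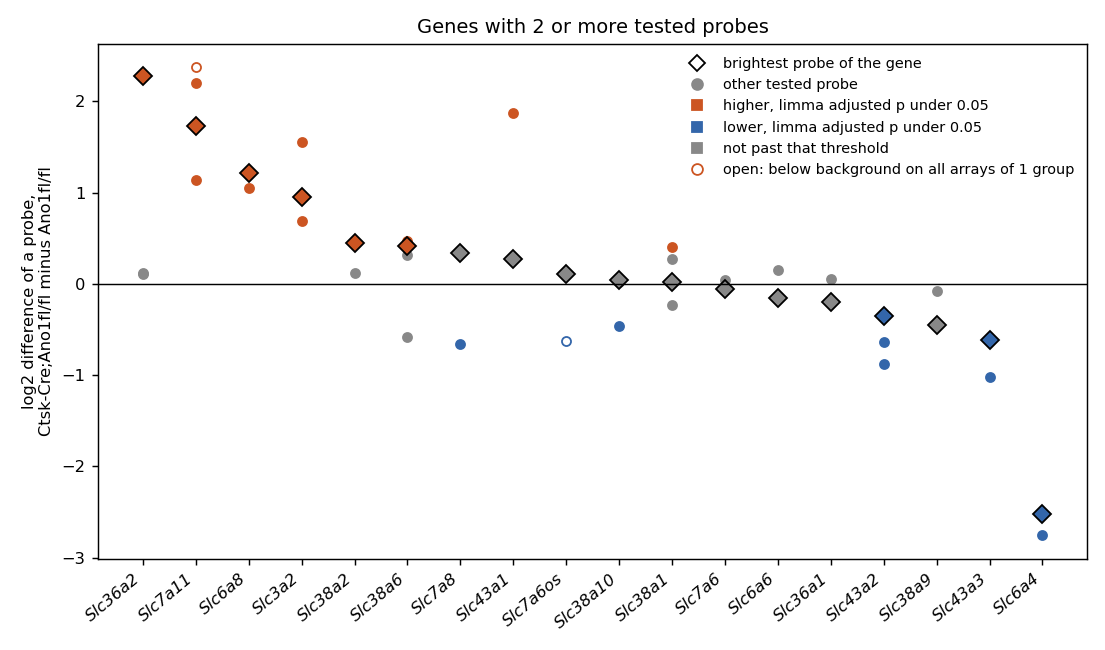
Log2 difference, knockout-labelled minus control, of each tested probe in the 18 genes with 2 or more tested probes (diamonds mark the brightest probe). Open symbols mark probes below background on all arrays of 1 group, whose plotted difference is no exact size. The 3 filled points of Slc7a11 are at 1.13, 1.73 and 2.20, whereas Slc36a2 has a probe at 2.28 and a pair at 0.11 and 0.12.

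Promoter sequence was examined because ATF4 and the oxidative stress factor NRF2 are known to act through short DNA words. In RefSeq windows (GRCm38.p6) from 250 bases before to 50 bases after each gene start, on both strands, the amino acid response element TGATGNAA was present in 3.97% of 32851 windows and 4.51% of 27025 genes. Among the 48 member genes with a window it was found in 3, which were Slc7a11, Slc7a7 and Slc1a4. These were 3 of the 14 higher genes with a window, 0 of the 4 lower and 0 of the 30 others. The antioxidant response element TGACNNNGC was present in 12.4% of windows and 14.0% of genes, and in 10 of the 48 member genes, 3 of 14 higher, 0 of 4 lower and 7 of 30 others. No member window held both words, and a match is a description of sequence and not of binding.

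The Slc7a11 window is printed because its gene was higher on all probes and it holds 2 matches, 66 and 47 bases before the start and in opposite orientation. The stretch is the 250 bases before the start, chr3:50443614-50443863 on the minus strand, and the shorter stretches are around matches of Slc7a7 (chr14:54418067-54418096 and chr14:54417927-54417956, minus strand) and Slc1a4 (chr11:20332699-20332728, minus strand), with matches in capitals.
Slc7a11: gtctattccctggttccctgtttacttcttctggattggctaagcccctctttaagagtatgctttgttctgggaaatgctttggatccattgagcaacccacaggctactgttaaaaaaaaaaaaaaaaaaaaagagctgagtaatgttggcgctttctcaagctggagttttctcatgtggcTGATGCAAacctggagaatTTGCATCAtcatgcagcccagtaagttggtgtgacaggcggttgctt
Slc7a7: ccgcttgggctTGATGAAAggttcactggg
Slc7a7: gacctagaagcTGATGCAAcagcttccccg
Slc1a4: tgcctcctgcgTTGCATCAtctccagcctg

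Genes around these carriers were counted from lists compiled for this purpose. The lists were chosen with earlier results of these data known, so their counts are descriptions. Among all genes tested, 23.4% were higher and 29.0% lower, with 9.88% and 7.19% past 2-fold. In the list of the amino acid response through GCN2 and ATF4, 24 of 27 tested genes were higher and 0 lower in limma, 18 of them by more than 2-fold, with a median log2 difference of 1.33. Of these, 3 (Fgf21, Pycr1 and Stc2) entered the test only through the knockout-labelled group, and with only genes well above background on all 6 arrays tested, 21 were higher. Atf4 itself, named here although it was not past 2-fold, rose by 0.84 from 16.35, 16.40 and 16.49 to 17.26, 17.22 and 17.30. Fgf21, a secreted stress hormone, was below background on all control arrays and was at least 7.55-fold higher on the knockout-labelled arrays. Chac1, which degrades glutathione, rose by 4.88. Stc2, a secreted glycoprotein that was well above background on 1 of 3 control arrays, had a fitted rise of 4.66, which is no exact size. At an unadjusted p under 0.05, limma and the methods' t-test likewise gave 24 higher and 0 lower. The kinase genes Eif2ak4, which encodes GCN2, and Eif2ak3 and the initiation factor gene Eif2s1 were the 3 that did not pass.

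In the list of amino acid sensing by mTORC1, 12 of 34 tested genes were higher and 8 lower, 3 and 1 of them past 2-fold, against 23.4% higher and 29.0% lower among all genes, and 9.88% and 7.19% past 2-fold. With 75th percentile scaling 11 were higher and 11 lower, and without control replicate 2 or knockout-labelled replicate 3, or with the replicate block, 4 were lower. Rragd, a Rag GTPase that brings mTORC1 to the lysosome, rose by 2.18, Eif4ebp1, a translation repressor that mTORC1 inactivates, rose by 1.37, and Sesn2, a leucine sensor that is also in the previous list, rose by 1.06. Sesn1, its relative, fell by 1.31. The median of this list was 0.16.

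Of 28 tested enzymes of glutamine, glutamate, arginine, cystine and branched-chain amino acids, 9 were higher and 6 lower, against 23.4% and 29.0% among all genes, with a median of 0.06. Cth, which makes cysteine from cystathionine, rose by 7.10, from 3.63, 3.93 and 3.65, well above background on 1 of 3 control arrays, to 10.79, 10.72 and 11.02. Cth entered the test only through the knockout-labelled group, and its fitted difference is no exact size. Bcat1, the cytosolic branched-chain aminotransferase, rose by 4.83, and Nos2, which makes nitric oxide from arginine, rose by 2.91. Gls2, a glutaminase, fell by 1.93, and Prodh, which degrades proline, fell by 1.20.

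The other amino acid and peptide carriers, outside the 7 families, gave 3 higher and 3 lower of 17 tested, with a median of -0.01. Among all genes, 23.4% were higher and 29.0% lower. Slc32a1, the carrier that loads GABA and glycine into vesicles, rose by 3.11, and Slc15a3, a peptide and histidine carrier of endolysosomes, rose by 1.84.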

How the data were processed

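For each of the 6 arrays the authors deposited the output of Agilent Feature Extraction 10.7.1.1, whose processed signal is an intensity on a linear scale after background subtraction, not normalized between arrays. A further table deposited with them holds an intensity equal to the median of each spot. The methods name a quantile algorithm and littermates, and the filter on dim probes is not given in the sources used here. The log2 of the processed signal was taken and quantile normalized over transcript spots with limma 3.58.1 (R 4.3.3, with the data.table package, version 1.17.8), with outlier spots as missing and 14 probes with missing values left out, and averaged per probe. A probe counted as well above background where at least 0.5 of its spots were. The probe with the highest mean stood for its gene, which was tested if all 3 arrays of 1 group or both met that mark. Groups were compared with limma (lmFit, eBayes) and Benjamini-Hochberg adjustment over 20645 genes. With 3 arrays against 3, an exact test could not go below 0.1, and p-values measure the spread between these 6 mice.

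Named genes were all members past 2-fold at an adjusted p under 0.05, a list of well-studied members, members below background in 1 group, and the 3 largest rises and falls past 2-fold in each pathway list. Other members are named to complete their families, chosen after their values were seen. The values of 2 genes are not reported here. Members and lists were chosen with earlier results of these data known. Gene names and positions (mm9) were taken from the array files. Of 93 member probes with a RefSeq accession, 90 matched the RefSeq table and 0 carried another symbol. Promoters came from RefSeq (GRCm38.p6), and probe sequences were compared with Python 3.11.15, pandas 2.3.3 and numpy 2.4.6. Plots used matplotlib 3.10.9.

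On simulated data for this comparison (20645 genes, 200 changed), the limma fit recovered 90% of 4-fold rises and 86% of 4-fold falls but 68% of 2-fold rises and 54% of 2-fold falls, and 11 of 160 calls were of unchanged genes. In the data 52.4% of genes were called, far more than were changed in the simulation. The simulated threshold was therefore stricter, and these rates do not measure recovery in this comparison. A member that did not pass may still have changed. Alternatives were 75th percentile scaling, normexp with an offset of 50, the table of spot medians, other filters, probes in place of genes, a gene's probes averaged, other tests, folds of 1.5 and 3, a replicate block, and leaving out each array.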

Additional observations from a re-analysis of the deposited data

How the results depend on the processing

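Over all alternatives that apply, the number called higher stayed between 16 and 30 (21 as reported), and the median log2 difference of the members stayed above 0. The 30 counts probes and not genes, from the setting with probes in place of genes. Of 37 tested members named with values, 20 kept their direction and side of the threshold under every alternative. With normexp and an offset of 50, members past 2-fold were 7 higher and 1 lower and the median was 0.23. The deposited spot medians gave 1 lower past 2-fold and a median of 0.30, the filter asking for all 6 arrays gave 1 lower past 2-fold, and without a filter the median was 0.24. With probes in place of genes, 11 were lower, 17 were higher past 2-fold, 4 were lower past 2-fold and the median was 0.27. At 3-fold, 7 were higher. Leaving out 1 array gave 3 to 5 members lower, with 3 without control replicate 1 or control replicate 2, and 4 to 7 lower genes in the mTORC1 list (8 as reported), with 5 without control replicate 1, control replicate 3 or knockout-labelled replicate 2 and 4 without control replicate 2 or knockout-labelled replicate 3. Signs turned for Slc38a1 (-0.061 with 75th percentile scaling, and -0.042 to 0.087 with 1 array left out, below 0 without knockout-labelled replicate 3), Slc7a8 (-0.16 with the mean of all probes) and Slc7a6 (-0.11 to 0.027 with 1 array left out, above 0 without knockout-labelled replicate 2), and likewise for Slc6a12 (-0.78 to 0.25 with 1 array left out, above 0 without control replicate 1) and Slc38a10 (-0.034 with 75th percentile scaling, -0.13 with the mean of all probes, and -0.017 to 0.090 with 1 array left out, below 0 without control replicate 3 or knockout-labelled replicate 1). The methods' t-test gave 20 members higher and 5 lower at an unadjusted p under 0.05, and 16 and 4 after Benjamini-Hochberg. Slc1a4 lost its call with the methods' t-test (Benjamini-Hochberg adjusted p = 0.0559 over all genes, as for limma) and with the replicate block (0.0530). Slc38a2 lost its call with the mean of all probes and without control replicate 2 or control replicate 3, and Slc43a2 lost its call without any 1 of the control arrays. The call of Slc36a4 was lost without any 1 array other than control replicate 1, that of Slc6a20a without any other than knockout-labelled replicate 2, those of Slc7a4 and Slc38a8 without control replicate 2 or 3 or knockout-labelled replicate 1 or 2, and that of Slc38a6 without control replicate 2 or knockout-labelled replicate 1 or 2. Slc6a17 lost its call with normexp, the deposited spot medians and the mean of all probes, and Slc6a20a under all alternatives but 2. Slc38a9 passed under 5 alternatives, Slc7a8 with limma's trend and robust options, Slc43a1 with the mean of all probes and without knockout-labelled replicate 3, and Slc7a14 without control replicate 3. The cause of these changes was not tested. The sources do not say whether replicate numbers pair the samples. Deviations of same-numbered arrays correlated at 0.0044, -0.0617 and -0.0808 across genes, which cannot settle it, because a shared effect may touch few genes. With the replicate block, 18 members were higher and 4 lower, the mTORC1 list had 4 lower, and 4200 genes were higher and 5079 lower, against 4839 and 5987. Signal over background limits what can be said of 19 members, which were below background throughout.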

Other observations

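Slc6a12 and Slc6a13 shared a pattern that did not follow the groups. The arrays numbered 1 gave the highest value in each group for both genes, and the probes are 27885 bases apart on chromosome 6 (mm9). The pooled within-group SD was 0.89 for Slc6a12, rank 59 of 20645 genes, and 0.51 for Slc6a13, rank 737, against a median of 0.14 over all genes. The arrays of a number come from different mice, and the pattern was noticed in the data and was not tested.

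Slc36a3os, named for lying opposite Slc36a3, also had a large within-group SD of 0.89, rank 58, with values of 4.25, 6.11 and 6.24 in controls and 6.15, 5.37 and 6.53 on the knockout-labelled arrays.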
